A study of Oryza sativa with 4 samples.

Results

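OsDREB1A, OsDREB1B, OsDREB1C, OsDREB1E, OsDREB1G and OsDREB2A are 6 rice genes for dehydration-responsive element-binding (DREB) transcription factors. They were taken by gene ID from the deposited table of 31414 genes, and all 6 were present, as 7 of 37972 transcripts. The study sequenced leaf RNA of plants overexpressing the NAC transcription factor OsNAC14 to find the genes that change with it. The values are FPKM, read numbers scaled for transcript length and for the mapped reads of the library, in 2 libraries of non-transgenic plants (NT) and 2 of OsNAC14OX plants.

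DREB proteins carry an AP2/ERF domain and bind the dehydration-responsive element in promoters of stress genes. The DREB1 subgroup, named CBF in Arabidopsis, is best known for its rapid induction by cold. The DREB2 subgroup is best known for its induction by drought, salt and heat, and both subgroups activate dehydrins, enzymes of protective sugars and other genes of dehydration tolerance.

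In OsNAC14OX plants the constitutive PGD1 promoter drives OsNAC14, and the study describes the sequenced plants as a single homozygous line in the cultivar Nakdong. The deposited columns of the 2 OsNAC14OX libraries carry different numbers, and the sources used here do not explain them. Both genotypes were germinated on MS medium, grown in soil pots in a greenhouse and not exposed to drought or cold. The protocol gives an age of 2 weeks, whereas the sample labels give 20 days and the cultivar as Nipponbre. The descriptions and data columns of the NT samples, however, name Nakdong. The study calls the replicates biological duplicates. The number of plants in a library is not stated, and p-values here are relative to the spread among these 4 libraries.

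OsNAC14 was at 3.16 and 3.70 FPKM in the NT libraries and at 16.4 and 16.3 in the OsNAC14OX libraries. The overexpressed gene was thus at almost the same level in both OsNAC14OX libraries (log2 fold change 1.99, standard error 0.11, limma adjusted p = 0.0204). That call was lost without either NT library (adjusted p = 0.124 and 0.303) and without OsNAC14OX replicate 1 (adjusted p = 0.0605). Between 29446 and 29947 transcripts a library reached an FPKM of 1, and the number of reads behind a value is unknown. The leaf markers were abundant, with the chlorophyll a-b binding protein transcript Os09t0346500-04 at 2428 to 3210 FPKM. The Rubisco small subunit transcript Os12t0274700-02 was at 1494 and 1486 FPKM in NT and at 2868 and 2794 in OsNAC14OX, and Os12t0274700-01 was at 23.9 and 25.7 in NT and at 46.6 in both OsNAC14OX libraries. Neither was called (log2 fold changes 0.88 and 0.90, limma adjusted p = 0.101 and 0.066), and their part in the results was not tested. All 3 root markers were also detected, with RCc3 at 392 and 390 FPKM in NT and at 182 and 369 in OsNAC14OX replicates 1 and 2. The silicon transporter Lsi1 was at 166 FPKM in both NT libraries and at 86.3 and 146 in OsNAC14OX. The metal transporter Os03g0667500 was at 7.37 and 7.70 FPKM in NT and at 2.91 and 7.49 in OsNAC14OX. The 3 root markers were thus lowest in OsNAC14OX replicate 1, and their part in the results below was not tested. The study describes the RNA as from leaves, and whether it also held RNA of other tissue was not tested. In bulk RNA, a change in the number of expressing cells and a change of RNA per cell cannot be told apart.

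No DREB gene differed between the groups beyond the spread of the replicates. Instead, the 2 OsNAC14OX libraries lay on opposite sides of NT for every one of the 6 genes, and for the 5 DREB1 genes they were 14.6-fold to 83.6-fold apart. In replicate 1 each gene was above both NT libraries, and in replicate 2 each was below both.

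OsDREB1B (Os09g0522000), a cold-induced DREB1 factor, was the most abundant of the 6 in 3 of 4 libraries. Its single-exon transcript Os09t0522000-01 (IRGSP-1.0 chromosome 9, 20395262 to 20395703, 442 bases) was at 59.1 and 63.1 FPKM in NT, 131 in OsNAC14OX replicate 1 and 4.33 in replicate 2. The NT libraries were close together, while the OsNAC14OX libraries differed 30.2-fold. OsDREB1A, also cold-induced in rice, lies near it (gene Os09g0522200, transcript Os09t0522200-01, 20403413 to 20404332, 920 bases). Its FPKM was 18.8 and 28.6 in NT, 58.8 in OsNAC14OX replicate 1 and 4.02 in replicate 2. That was a 14.6-fold difference between the OsNAC14OX libraries, the smallest among the DREB1 genes.

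OsDREB1C (gene Os06g0127100, transcript Os06t0127100-01, chromosome 6, 1434770 to 1435533, 764 bases) had the largest ratio. It was at 4.90 and 8.79 FPKM in NT, 30.1 in OsNAC14OX replicate 1 and 0.360 in replicate 2, an 83.6-fold difference. OsDREB1G (gene Os02g0677300, transcript Os02t0677300-02, chromosome 2, 27652935 to 27654206, 1272 bases) is described in the table as similar to CRT/DRE binding factor 1. It was at 10.0 and 12.0 FPKM in NT, 35.5 in OsNAC14OX replicate 1 and 0.634 in replicate 2, a 56.0-fold difference. Both genes, like OsDREB1E, were below an FPKM of 1 in OsNAC14OX replicate 2, so each of these ratios rests on a low value there.

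OsDREB1E (gene Os04g0572400, transcript Os04t0572400-00, chromosome 4, 28820861 to 28821520, 660 bases) has the same description as OsDREB1G. Its FPKM was 9.10 and 13.3 in NT, 20.7 in OsNAC14OX replicate 1 and 0.937 in replicate 2, a 22.0-fold difference. In each of the 5 DREB1 models the genomic span equalled the transcript length, so the models hold no intron.

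OsDREB2A (Os01g0165000), which responds to drought and salt in rice, varied far less. Its main transcript Os01t0165000-01 (chromosome 1, 3356383 to 3358426, a spliced model of 1428 bases) was at 8.71 and 8.77 FPKM in NT, 14.8 in OsNAC14OX replicate 1 and 7.00 in replicate 2. The OsNAC14OX libraries were in the same order as for DREB1 but only 2.11-fold apart. The longer transcript Os01t0165000-02 (3638 bases) was at 0.819 and 0.639 FPKM in NT and at 1.04 and 0.564 in OsNAC14OX, and it was too low to be tested.

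**Figure D1:**
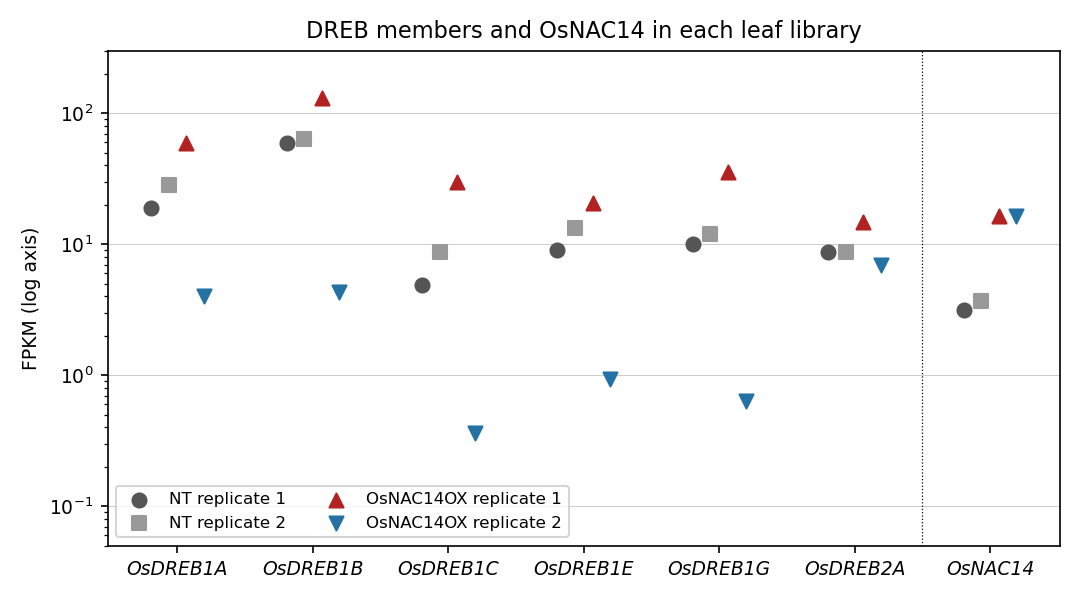
FPKM (log axis) of the tested transcript of each DREB gene and of OsNAC14 in every library, with 1 point per library and no averaging. For each DREB gene the point of OsNAC14OX replicate 1 is highest and that of replicate 2 lowest, from 131 to 4.33 FPKM for OsDREB1B, whereas OsNAC14 is at 16.4 and 16.3.

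The order of the 6 genes was also different in OsNAC14OX replicate 2. OsDREB1B and OsDREB1A ranked first and second in both NT libraries and in OsNAC14OX replicate 1. In OsNAC14OX replicate 2 OsDREB2A ranked first, with 7.56 FPKM over its transcripts, ahead of OsDREB1B at 4.33 and OsDREB1A at 4.02. The summed FPKM of the 5 DREB1 genes was 102 and 126 in NT, 276 in OsNAC14OX replicate 1 and 10.3 in replicate 2. OsDREB1B and OsDREB1A were separated in NT by more than the difference between the NT libraries. OsDREB1E and OsDREB1G were not, and they changed order between NT replicates 1 and 2.

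Group means were compared with limma on the deposited normalized log2(FPKM + 1) values, for the 30251 transcripts that reached an FPKM of 1 in 2 or more libraries. A called transcript had an adjusted p below 0.05 and at least a 2-fold change of the normalized FPKM + 1. Over all tested transcripts 0.555% were called, and of the 6 DREB genes 0 were. None of the 6 reached an unadjusted p of 0.05 either, as 9.4% of all tested transcripts did. The exact two-sided permutation test gave p = 1 for each gene, and with 2 libraries against 2 its smallest possible p is 0.333.

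For OsDREB1B the log2 fold change was -1.17 with a 95% interval from -5.66 to 3.32 (limma adjusted p = 0.860). For OsDREB1C it was -0.22 with an interval from -4.63 to 4.18. The intervals of OsDREB1A (-0.46, from -3.95 to 3.02), OsDREB1E (-0.88, from -4.27 to 2.52) and OsDREB1G (-0.62, from -4.95 to 3.71) also spanned more than 6 log2 units each. A difference between the genotypes of several log2 units in either direction therefore could not be detected for the DREB1 genes. The interval of OsDREB2A was narrower, at 0.23 with bounds of -0.73 and 1.19 (limma adjusted p = 0.873). The median residual standard deviation of the DREB1 genes was 2.24 on the normalized log2 scale, compared with 0.13 over all tested transcripts.

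The sign of each gene depended on which OsNAC14OX library was used. In these fits the lone OsNAC14OX library is assumed to vary like the NT libraries, so the p-values rest on the NT spread alone. For OsDREB1B the standard deviation was 0.05 in NT and 3.28 in OsNAC14OX (normalized log2). The calls below therefore cannot establish a difference between the genotypes. With replicate 1 alone, the 6 log2 fold changes were 0.71 to 2.03, and 2 genes were called higher, beside 1.69% of all tested transcripts. These were OsDREB1B (1.15, limma adjusted p = 0.0346) and OsDREB1G (1.61, limma adjusted p = 0.0383). With replicate 2 alone, the values were -3.49 to -0.25, and OsDREB1B was called lower (-3.49, limma adjusted p = 0.0327), beside 0.0893% of all tested transcripts. The estimate for OsDREB1B thus had opposite signs with the 2 libraries.

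**Figure D2:**
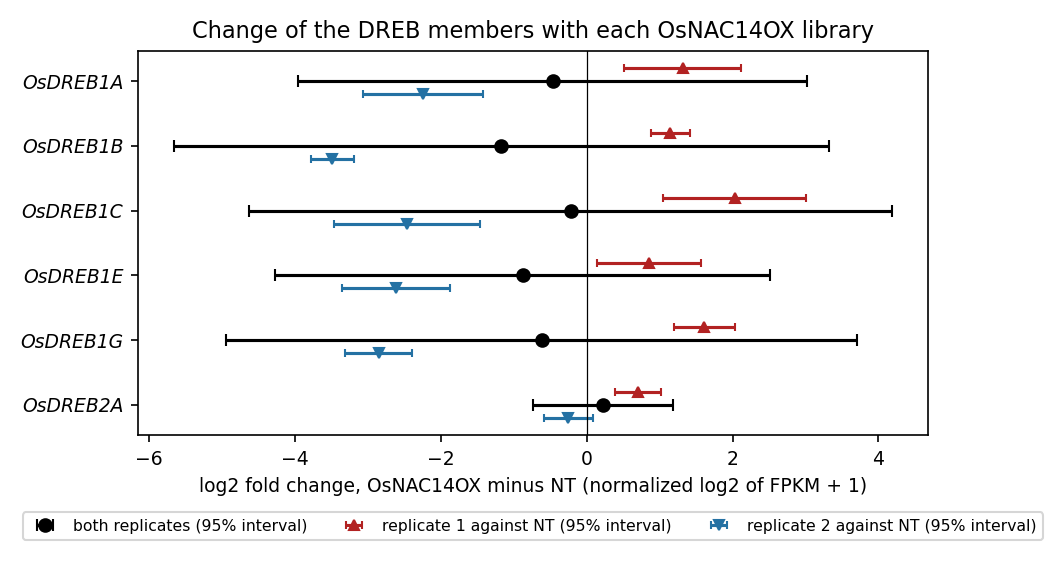
Log2 fold change of each DREB gene between OsNAC14OX and NT on the normalized log2(FPKM + 1) scale, with 95% intervals from limma, for both OsNAC14OX libraries together and for each alone against the 2 NT libraries. With both libraries every interval includes 0, and with 1 library the estimates fall on opposite sides of 0, at 1.15 and -3.49 for OsDREB1B.

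The position of OsNAC14OX replicate 1 above and replicate 2 below both NT libraries was found for 8.59% of the 30251 tested transcripts, and for 6 of 6 DREB genes. The reverse position was found for 12.8%. A difference of at least 4-fold in normalized FPKM + 1 between the OsNAC14OX libraries was rarer. It was found for 300 transcripts with replicate 1 higher (0.992%), among them all 5 DREB1 genes, and for 28 with replicate 2 higher. The difference of OsDREB1B, 4.64 on the normalized log2 scale, was reached in that direction by 14 tested transcripts, itself included. That of OsDREB1E, 3.47, was reached by 50, and that of OsDREB2A, 0.96, by 1150. Between the NT libraries all 5 DREB1 genes were higher in replicate 2, by 0.08 to 0.69, and OsDREB2A differed by 0.03. An NT difference as large, in either direction, was found for 3.73% of all tested transcripts for OsDREB1C. That share was 5.04% for OsDREB1A, 6.62% for OsDREB1E, 24.5% for OsDREB1G, 64.4% for OsDREB1B and 87.7% for OsDREB2A.

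**Figure D3:**
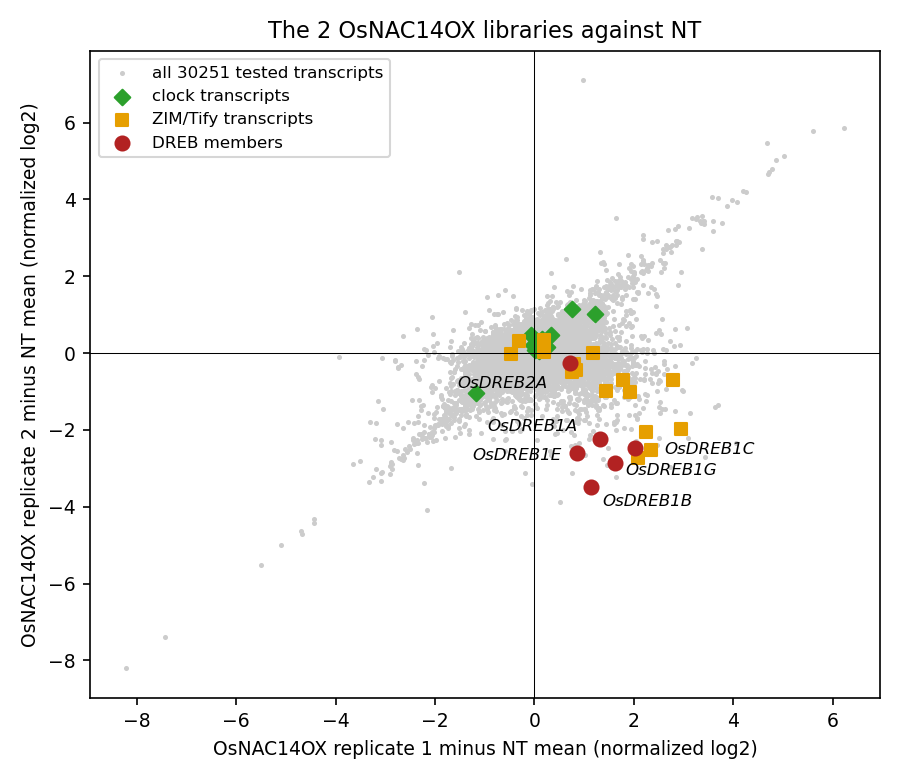
Difference of OsNAC14OX replicate 1 (horizontal) and replicate 2 (vertical) from the NT mean on the normalized log2 scale, for all 30251 tested transcripts (grey), clock transcripts (green), ZIM/Tify transcripts (orange) and the DREB genes (red). The 5 DREB1 genes sit at the lower right, between 0.86 and 2.03 on the horizontal axis and between -3.49 and -2.24 on the vertical axis, and OsDREB2A is nearer to 0.

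The DREB1 genes had like profiles over the 4 libraries. The root mean square distance between their centred normalized log2 profiles was 0.21 (OsDREB1A and OsDREB1E) to 0.55 (OsDREB1A and OsDREB1B), whereas distances to OsDREB2A were 1.0 to 1.48. These distances describe 4 libraries and were not tested. The nearest transcripts of other genes were Tify domain genes for OsDREB1C, namely Os03t0181100-02 (distance 0.16) and Os10t0391400-01 (0.18). For OsDREB1A they were an Arm repeat protein, Os02t0540700-00 (0.09), and a protein phosphatase 2C-like protein, Os03t0761100-03 (0.12). OsDREB1G was nearest to Os01t0186900-01, of no described function (0.08), and to the serine/threonine protein kinase Os01t0699600-01 (0.12). Os01t0186900-01 was also second nearest to OsDREB1B (0.24), after the hypothetical protein Os01t0186950-00 (0.21). OsDREB1E was nearest to Os03t0734500-01 (0.09) and Os02t0703700-00 (0.13), both without a described function. OsDREB2A was nearest to the subtilisin-related peptidase Os09t0441000-00 and the RING-type zinc finger protein Os10t0552400-01 (0.01 each).

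Of 10 other DREB genes in the table, 8 were tested and 0 were called, beside 0.555% of all tested transcripts. The DREB2B-like Os02t0752800-01 was the most abundant, at 136 and 122 FPKM in NT and at 130 and 167 in OsNAC14OX. The other tested transcript of that gene, Os02t0752800-02, varied within both groups. It was at 0.00352 and 16.4 FPKM in NT and at 0.00234 and 4.84 in OsNAC14OX. OsDREB2B was at 48.9 and 48.3 FPKM in NT and at 42.1 and 47.0 in OsNAC14OX. The DREB2F-like Os04t0648900-01 was at 33.3 and 39.6 FPKM in NT and at 37.4 and 38.7 in OsNAC14OX. The OsNAC14OX libraries differed by 3.47 to 4.64 for the DREB1 genes (replicate 1 minus replicate 2, normalized log2). For Os02t0752800-01, OsDREB2B and Os04t0648900-01 the difference was -0.34 to -0.10. The DREB1E-like Os02t0676800-01, by contrast, was at 3.29 and 3.42 FPKM in NT, 55.5 in OsNAC14OX replicate 1 and 0.677 in replicate 2. It lies 30.0 kb from OsDREB1G on chromosome 2, with no gene of the table between them. The DREB1F-like Os04t0549700-01 and OsDREB1H were named here after their values had been seen. Os04t0549700-01 was level, at 12.32 to 13.97 FPKM over the 4 libraries, and did not have the order of the 5 DREB1 genes. OsDREB1H lies between OsDREB1B and OsDREB1A. Its FPKM was 8.46 and 14.3 in NT, 19.3 in OsNAC14OX replicate 1 and 0.374 in replicate 2. The gaps between the 3 neighbours are 3.75 kb and 3.21 kb. The sources used here do not say how reads shared by such related copies were assigned, so the levels of single DREB1 genes are uncertain to that extent.

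Regulators known to act before DREB1 or DREB2 were mostly level across the libraries. All 10 genes of that list were tested and 0 were called, beside 0.555% of all tested transcripts. The median log2 fold change of the list was 0.18, against 0.00 over all tested transcripts. The MAP kinase transcript Os03t0285800-02 was at 22.2 and 25.1 FPKM in NT, 115 in OsNAC14OX replicate 1 and 9.13 in replicate 2, the same order as the DREB1 genes. The other tested transcript of that gene, Os03t0285800-01, was at 8.61 and 6.50 FPKM in NT and at 19.2 and 7.81 in OsNAC14OX. It did not have that order, as replicate 2 lay between the NT libraries. The order was found for 1 of the 14 tested transcripts of the list (7.14%), beside 8.59% of all tested transcripts. MYBS3, a repressor of DREB1 in rice, was at 28.1 and 27.9 FPKM in NT and at 38.6 and 29.3 in OsNAC14OX (Os10t0561400-02). Os04t0600800-01 was at 20.9 to 22.3 FPKM and Os05t0125000-01 at 19.2 to 21.7 over the 4 libraries. The ICE1-like genes, whose Arabidopsis relative activates CBF genes, were looked up after the values had been seen. Os11t0523700-01 was at 12.0 and 13.6 FPKM in NT and at 9.42 and 12.5 in OsNAC14OX, and Os01t0928000-01 was at 9.28 to 11.3 over the 4 libraries.

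Of 15 genes known to act after DREB factors or to be induced with them, 13 were tested. Among them 0 were called, beside 0.555% of all tested transcripts, although the median log2 fold change of the list was 0.44. SalT, a salt-induced lectin, was at 267 and 281 FPKM in NT and at 576 and 326 in OsNAC14OX. The dehydrin Os02t0669100-01 was at 88.7 and 93.8 FPKM in NT, 261 in OsNAC14OX replicate 1 and 71.4 in replicate 2. The trehalose-6-phosphate phosphatase Os02t0661100-01, an enzyme of trehalose synthesis, was at 43.4 and 42.6 FPKM in NT, 234 in OsNAC14OX replicate 1 and 15.1 in replicate 2. The dehydrin and the phosphatase thus had the order of the DREB1 genes. That order was found for 4 of the 14 tested transcripts of the list (28.6%), beside 8.59% of all tested transcripts. P5CS, an enzyme of proline synthesis, was at 33.5 and 31.9 FPKM in NT and at 36.1 and 32.8 in OsNAC14OX (Os05t0455500-02). The late embryogenesis abundant protein Os01t0705200-01, which the study lists as up-regulated by its own thresholds, was singled out after its values had been seen. It was at 0.392 and 0.553 FPKM in NT and at 4.18 and 3.17 in OsNAC14OX, and both OsNAC14OX libraries were above both NT libraries, as for 20.4% of all tested transcripts (log2 fold change 1.68, standard error 0.16, limma adjusted p = 0.0673). With OsNAC14OX replicate 1 alone 5 of the 13 genes were called higher, beside 1.69% of all tested transcripts. With replicate 2 alone 0 were called, where 0.0893% of all tested transcripts were called lower.

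ZIM/Tify genes, which include the JAZ repressors of jasmonate signalling, shared the spread of the DREB1 genes in large part. The list was chosen with earlier results of these data known. It includes Os03t0181100-02 and Os10t0391400-01, the transcripts nearest in profile to OsDREB1C over the same libraries. Its counts therefore only describe these libraries. Of the 14 ZIM/Tify genes 12 were tested, as 16 transcripts, and 0 were called, beside 0.555% of all tested transcripts. In 11 of the 16 transcripts (68.8%) OsNAC14OX replicate 1 was above and replicate 2 below both NT libraries, beside 8.59% of all tested transcripts. In 8 (50.0%) replicate 1 was at least 4-fold above replicate 2 in normalized FPKM + 1, beside 0.992% of all tested transcripts. Os03t0181100-02 was at 41.6 and 54.7 FPKM in NT, 195 in OsNAC14OX replicate 1 and 6.17 in replicate 2. Os04t0653000-01, the most abundant of the list, was at 154 and 163 FPKM in NT and at 172 and 156 in OsNAC14OX. Clock genes were listed because the circadian clock gates CBF genes in Arabidopsis. For their 14 tested transcripts the OsNAC14OX libraries differed by -0.52 to 0.20 (replicate 1 minus replicate 2, normalized log2). The median absolute difference was 0.12, beside 0.173 over all tested transcripts. Of these clock transcripts 0 were called, beside 0.555% of all tested transcripts, and their part in the results was not tested. GIGANTEA (Os01t0182600-01) was at 318 and 286 FPKM in NT and at 324 and 334 in OsNAC14OX. Of 68 AP2/ERF genes, the wider family of the DREB factors, 48 were tested, as 59 transcripts. In this list 1 gene was called, which was lower in OsNAC14OX, beside 0.555% of all tested transcripts. The order of the DREB1 genes was found for 18 of the 59 transcripts (30.5%), beside 8.59% of all tested transcripts. The reverse order was found for 9 of the 59 (15.3%), beside 12.8%.

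**Figure D4:**
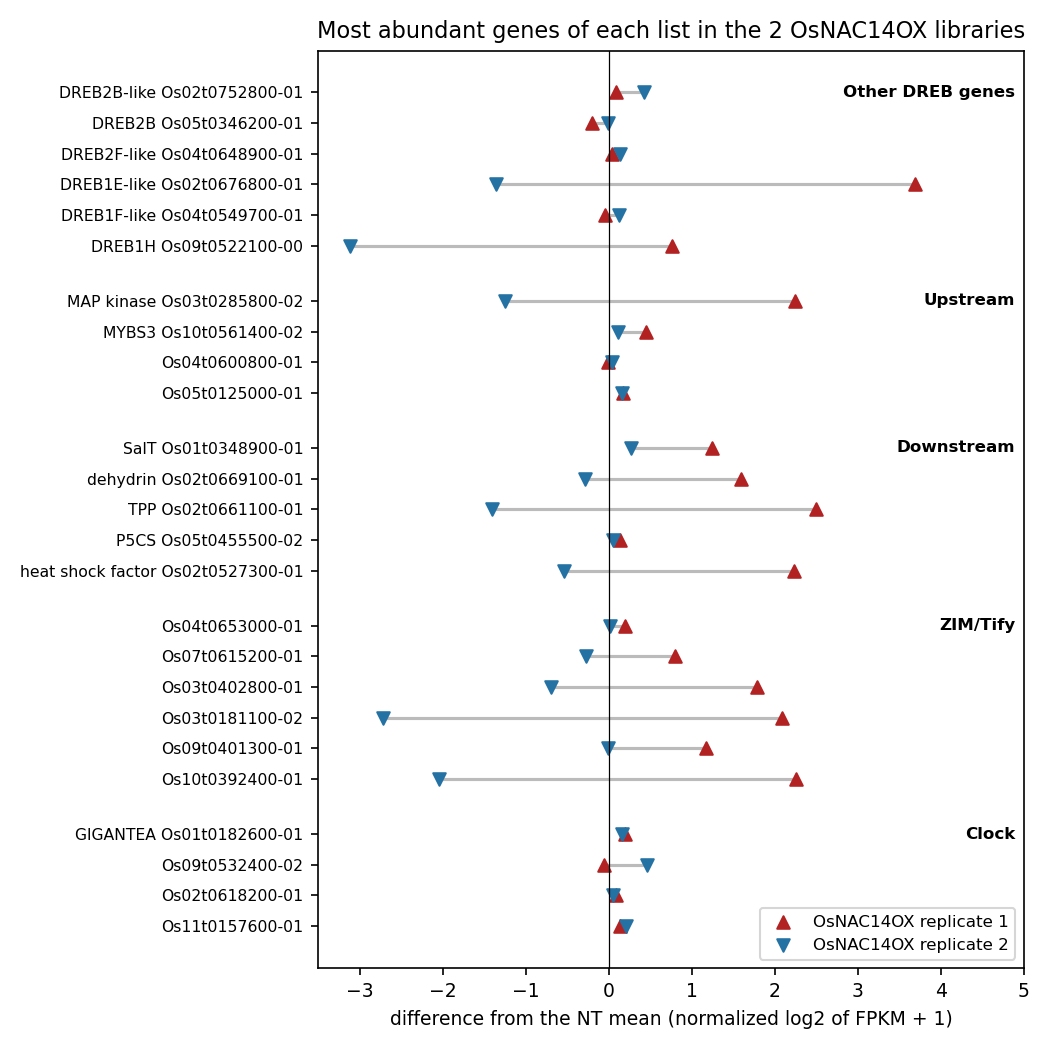
Difference of each OsNAC14OX library from the NT mean on the normalized log2(FPKM + 1) scale, for the most abundant tested genes of 5 lists, each by its most abundant transcript. The DREB1E-like Os02t0676800-01 and the MAP kinase, TPP (trehalose-6-phosphate phosphatase) and several ZIM/Tify transcripts lie on both sides of 0, whereas the 4 clock transcripts stay near it.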

How the data were processed

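Per the study's methods, the authors trimmed single-end reads with Trimmomatic and mapped them with TopHat and the RAP-DB annotation of IRGSP-1.0. The authors deposited FPKM (tool not given in the sources used here) and quantile-normalized log2 values of FPKM + 1. The labels name a strand-specific method, the paper a TruSeq RNA kit. Another 4 columns of per-sample values, of libraries outside the series, and the authors' fold changes and p-values were not used. The normalized columns of those libraries have the same median and maximum as the columns used, so they appear to have taken part in the quantile normalization, on which the tested values then depend. Depth is unknown, so no counting interval is given.

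Normalized values were compared with limma 3.58.1 in R 4.3.3 (two-sided, variance trend, no covariate), after a test on simulated data, with Benjamini-Hochberg adjustment over the 30251 transcripts that reached an FPKM of 1 in 2 or more libraries. Summaries used Python 3.11.15, pandas 2.3.3 and scipy 1.17.1. Fold changes understate changes at low FPKM. Start coordinates count from 1.

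The members and lists were chosen with earlier results of these data known, and the AP2/ERF and ZIM/Tify patterns were corrected for unrelated words (such as adaptin) after values had been seen. Listed IDs without a name in the deposited descriptions are given by ID, and 4 IDs of other DREB-related genes were not analysed here. The genes named by rule are OsNAC14, all member transcripts, called members or up to 4 of the highest mean FPKM in the other DREB, upstream and downstream lists, and the 2 transcripts nearest in profile to each member. Other ZIM/Tify and clock genes were chosen after their values had been seen. Alternatives were pseudocounts of 0.1 and 0.5, values without quantile normalization, an FPKM minimum of 5 or none, sums per gene, no variance trend, a replicate block, and each library left out in turn.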

Additional observations from a re-analysis of the deposited data

How the results depend on the processing

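The absence of calls among the 6 DREB genes held under all alternatives except leaving out an OsNAC14OX library. There 1 gene was called without replicate 1 and 2 were without replicate 2, against 0 without either NT library. Leaving out 1 library in turn moved the log2 fold changes from -2.24 to 1.31 for OsDREB1A, -3.49 to 1.15 for OsDREB1B, -2.47 to 2.03 for OsDREB1C, -2.61 to 0.86 for OsDREB1E, -2.85 to 1.61 for OsDREB1G and -0.25 to 0.71 for OsDREB2A. OsDREB1C was also positive without NT replicate 2, at 0.12. Over all transcripts 168 were called, 109 with no filter on FPKM and 0 to 772 with 1 library left out, where 0 was the count without either NT library. With 1 library left out, 0 to 1 genes of the other DREB list, 0 to 1 of the upstream list, 0 to 5 of the downstream list, 0 to 7 of the ZIM/Tify list and 0 to 5 of the AP2/ERF list were called. These lists had 8, 10, 13, 12 and 48 tested genes, in that order. The largest count of each list came without OsNAC14OX replicate 2, as did the 772 of 30251 transcripts. That fit rests on the NT spread alone, so its counts cannot establish a difference between the genotypes. The log2 fold change of OsNAC14 stayed between 1.93 and 2.05 with 1 library left out, and was 1.97 to 2.26 under the other alternatives. The cause of these shifts was not tested.

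The replicate numbers are shared by NT and OsNAC14OX but are not said to pair the libraries, and the deviations of same-numbered libraries from their group means correlated at 0.0037 across transcripts. With the replicate block 0 transcripts, and 0 AP2/ERF genes, were called, and OsNAC14 was at 1.99 with a limma adjusted p of 0.11. With 2 libraries a group and no read counts, small changes of low transcripts could not be resolved.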
